A study of Ambystoma mexicanum with 7 samples.

Results

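The accessible regions of systemically activated axolotl limb were set against those of intact limb, peak by peak. All peaks of both group lists were taken, 17326 of systemically activated limb and 25843 of intact limb, so that 43169 of the 702981 intervals in the 4 peak lists of the series entered. They were compared by position, by width and by summit, the base of highest signal within a peak. The systemically activated group held 2 samples of limb tissue and the intact group 3 samples of homeostatic limb tissue, all from wild-type Ambystoma mexicanum. The series design gives 14 days after amputation as the time of dissociation for homeostatic and systemically activated limbs. From each sample, 10000 live cells with a DNA content of 4C were sorted and transposed. The labels do not say which limb was amputated, whether animals were pooled, or whether each sample is a different animal.

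The axolotl is a salamander that regrows a lost limb. After an amputation, cells in limbs that were not themselves injured also return to the cell cycle, and this body-wide response is called systemic activation. Adrenergic signaling, the response to adrenaline and noradrenaline through their receptors, is named in the title of the series as a stimulus of it. A 4C DNA content is that of a cell that has copied its genome, whether or not it goes on to divide. ATAC-seq uses the Tn5 transposase to cut and tag DNA where chromatin is open, so that promoters, enhancers and other regions free of nucleosomes appear as peaks. A narrow peak is about the length of a single opening between nucleosomes, while broad peaks span longer open stretches.

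Each group had 1 list for all its samples. Values per sample were therefore not at hand, the replicate spread is unknown, and no test between the conditions was possible. Intervals are 95% intervals, exact binomial for shares and from order statistics for medians, and they cover counting error over peaks only. Neighbouring peaks are not independent, so these intervals are likely too narrow. The lists were not equally deep. More reads give a higher local background, and its lowest value over all summits was 0.375 fragments in systemically activated limb and 0.529 in intact limb, a ratio of 1.41 for intact over systemically activated. At the 5th percentile, over the peaks of each list, the backgrounds were 0.520 and 0.560, a ratio of 1.08. Over all summits the medians were further apart, at 1.62 and 2.10. At peaks with a counterpart in the other list they were 1.78 in systemically activated and 2.68 in intact limb. The part of depth and of the number of samples in the differences below was not tested and cannot be told apart from that of the condition. The files name no genes, so the limb identity of the cells was not checked against marker genes, and genes near the peaks were not analysed here.

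Joined where they overlapped, the peaks made 29795 sites. Of these, 12749 or 42.8% (42.2 to 43.4) were called in both lists. Only the systemically activated list held 4168 or 14.0% (13.6 to 14.4), and only the intact list 12878 or 43.2% (42.7 to 43.8). Most shared sites were simple, with 12150 of 12749 (95.3%) made of 1 peak of each list. Another 384 held 1 intact peak with several systemically activated peaks, 197 held 1 systemically activated peak with several intact peaks, and 18 held several of each. In bases, both lists covered 4.59 Mb in common, which was 71.0% of the bases of systemically activated peaks and 43.4% of those of intact peaks. Systemically activated peaks that no intact peak overlapped were 24.1% of their list and held 16.7% of its bases. Intact peaks that no systemically activated peak overlapped were 49.8% of theirs and held 36.3% of its bases.

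Few peaks lay within 20 bases of the threshold of 1 shared base. Of 13374 overlapping pairs, 97 shared at most 20 bases. Of the peaks without an overlap, 51 systemically activated and 57 intact peaks lay at most 20 bases from a peak of the other list, of which 3 and 1 abutted it. Within 200 bases they were 333 and 508. Stricter overlap rules changed the shares more, as given at the end.

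Wider peaks were overlapped more often in both lists, as the plot of overlap by width shows. Both lists had a minimum width of 200 bases, at which 12.8% of systemically activated and 12.2% of intact peaks stood. At that minimum an intact peak overlapped 885 of 2219 systemically activated peaks, a share of 39.9% (37.8 to 42.0), and a systemically activated peak overlapped 328 of 3146 intact peaks, a share of 10.4% (9.38 to 11.5). The shares climbed in every wider class. From 300 to 399 bases they were 82.2% (80.9 to 83.4) in systemically activated limb and 44.1% (42.7 to 45.5) in intact limb, and from 500 to 699 bases 97.3% (96.6 to 97.9) and 84.0% (82.8 to 85.1). All 110 systemically activated peaks of at least 1000 bases had an intact counterpart, a share whose lower bound was 96.7%, and 463 of 475 intact peaks of that width (97.5%, 95.6 to 98.7) had a systemically activated one. The broadest open regions of either limb were therefore nearly always called in both lists.

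**Figure D1:**
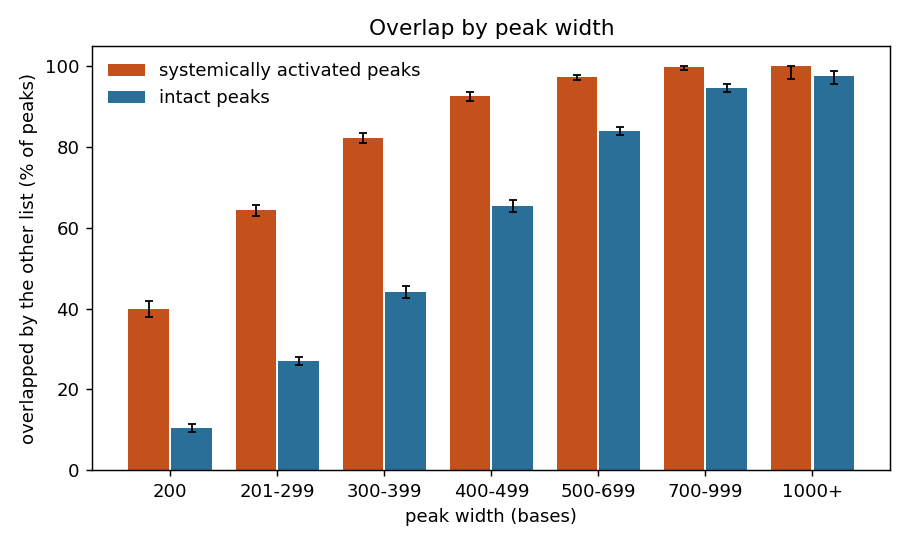
Share of systemically activated peaks overlapped by an intact peak and of intact peaks overlapped by a systemically activated peak (y axis, percent) in 7 classes of peak width (x axis, bases), with exact binomial 95% intervals as error bars. Both shares climb with width, from 39.9% and 10.4% at 200 bases to 100% and 97.5% at 1000 bases or more.

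Width and strength move together, so the overlap was also read within tertiles of each list's own −log10 q, the authors' measure of how far a summit stands above background. Width still went with overlap inside each tertile. In the lowest tertile of the systemically activated list, 45.1% of peaks under 300 bases, 70.5% of those from 300 to 499 bases and 86.7% of those of 500 bases or more had an intact overlap. In the lowest tertile of the intact list the same classes had 14.2%, 30.0% and 56.2%. In the highest tertile the shares were 85.0%, 96.8% and 99.4% for systemically activated peaks, and 51.6%, 78.4% and 94.7% for intact peaks. Narrow peaks were thus often without a counterpart even in the highest tertile of the intact list. That tertile ran from a −log10 q of 6.91 to 187.88, so strength still varied within it.

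Few peaks without a counterpart were tall. The pileup is the number of fragments over the summit, as MACS2 counts them. Its median was 10 (quartiles 8 and 13) in systemically activated peaks with no intact overlap, against 16 (12 and 20) in those with one. In intact peaks it was 12 (9 and 16) with no systemically activated overlap and 20 (16 and 26) with one. At a pileup of at least 30, 7 of 495 systemically activated peaks (1.41%, 0.570 to 2.89) and 78 of 1834 intact peaks (4.25%, 3.38 to 5.28) had no counterpart. Under a pileup of 10 the shares were 64.0% (62.1 to 65.8) and 92.7% (91.8 to 93.5). The highest pileup at a peak without a counterpart was 45 in systemically activated limb and 69 in intact limb.

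The widest systemically activated peak with no intact overlap was 735 bases long, on arm 9p from 330152147 to 330152881, but it ended 3 bases from an intact peak. The next was 708 bases on 4q segment 1 from 266374608 to 266375315, and the nearest intact peak was 578 kb away. A peak of 695 bases on 3p segment 0 (131218043 to 131218737), one of 689 bases on 8q segment 0 (274805021 to 274805709) and one of 679 bases on 9p (147239147 to 147239825) followed. Their distances to the nearest intact peak were 124 kb, 44.4 kb and 1226 kb. The widest intact peak with no systemically activated overlap was 1351 bases long, on 3q segment 0 from 30562242 to 30563592, with a pileup of 27 and the nearest systemically activated peak 63.5 kb away. The next 4 ran from 1086 to 1154 bases. The tallest of these 5 had a pileup of 30 and lay on 1q segment 2 from 445503699 to 445504784, 412 bases from a systemically activated peak. A blastema peak overlapped all 5 of each direction, against 77.4% of all systemically activated and 80.7% of all intact peaks without a counterpart, a background near which these counts lie. The blastema list, from 2 samples, was far longer than either limb list. It held 168368 peaks over 73.0 Mb, against 6.48 Mb in the systemically activated and 10.6 Mb in the intact list. Shares of peaks with a blastema overlap were not adjusted for this.

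At shared sites, systemically activated peaks were the narrower ones. Each systemically activated peak was paired with the intact peak that it overlapped most, which gave 13158 pairs with 12760 intact peaks. The median width in a pair was 376 bases for the systemically activated and 498 bases for the intact peak. The median difference, systemically activated minus intact, was -94 bases (-98 to -90), with quartiles of -236 and 7 bases. The intact peak was wider in 9575 pairs (72.8%), the systemically activated peak in 3503 (26.6%), and 80 pairs had equal widths.

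**Figure D2:**
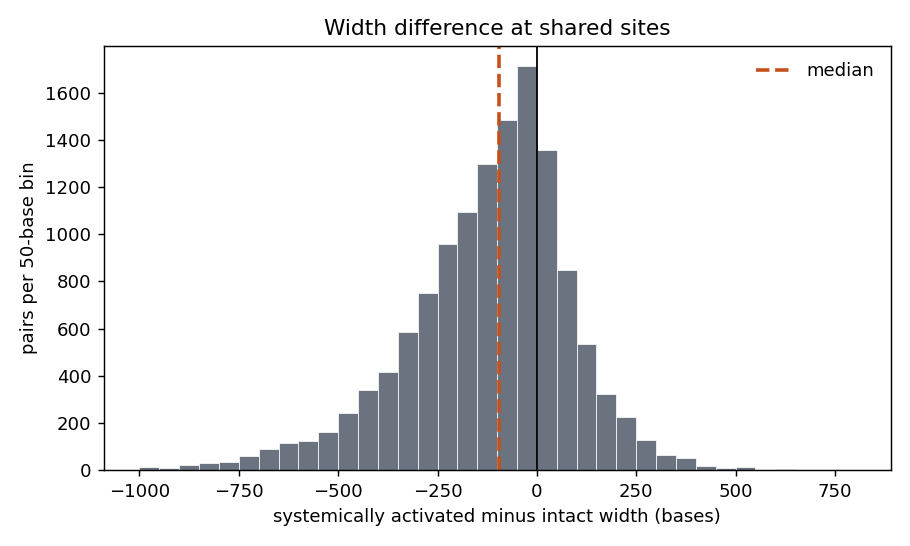
Number of pairs (y axis, per bin of 50 bases) by the width of the systemically activated peak minus that of its intact partner (x axis, bases), over 13158 pairs at shared sites, with the few pairs beyond the axis left out. The distribution leans to the left of 0 (solid line) and its median is -94 bases (dashed line).

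The extra width of intact peaks lay on both sides. The systemically activated interval began a median of 37 bases after the intact one and ended 38 bases before it. It lay wholly inside the intact interval in 5187 pairs (39.4%) and held it wholly in 1118 (8.50%), 5 pairs had the same interval, and the other 6848 (52.0%) were staggered. Among these the systemically activated peak stood to the left in 3433 and to the right in 3415, a nearly even split. The difference grew with the mean width of the pair, which includes the intact width. Its median was -28 bases (-33 to -24) in the narrowest quartile of pairs and -173.5 bases (-184 to -161) in the broadest. By quartile of the systemically activated −log10 q it shrank instead, from -105 bases (-114 to -98) in the lowest to -84 bases (-91 to -77) in the highest.

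Pileup moved with this difference. In 10941 pairs (83.3%) the intact summit had the higher pileup, with medians of 15 fragments in systemically activated and 22 in intact limb, and there the median width difference was -107 bases (-111 to -103). In the 713 pairs of equal pileup it was -37 bases (-56 to -25), with the intact peak wider in 61.4%. In the 1488 pairs with the higher pileup in systemically activated limb it was -23 bases (-35 to -13), with the intact peak wider in 56.1%. The difference kept its sign in all 3 groups of pairs and was smallest in the last. Pileups were not scaled for depth, so this split cannot set width apart from depth.

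Some pairs went far against this pattern. Among pairs in which each peak overlapped only the other, the systemically activated peak exceeded its intact partner most on 10p segment 1, with 904 bases (58120444 to 58121347) against 253 bases (58120775 to 58121027), at a pileup of 20 in both. The second was on 3p segment 0, with 851 bases (257460999 to 257461849) against 220 bases (257460995 to 257461214), at a pileup of 13 in both. Among the same pairs, the largest difference in the other direction was on 14q. There a systemically activated peak of 278 bases (342726503 to 342726780) lay inside an intact peak of 1280 bases (342726407 to 342727686). A similar pair was on 7p segment 0, with 391 bases (154195368 to 154195758) inside 1365 bases (154194964 to 154196328). Among these pairs of 1 peak each on named arms, the largest differences were thus -1002 bases on one side and 651 bases on the other.

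Summits in the 2 lists were close together but seldom on the same base. The median distance between the summits of a pair was 80 bases (78 to 82), with quartiles of 29 and 172 bases. Of the pairs, 11.2% had summits within 10 bases, 37.4% within 50, 57.2% within 100 and 80.9% within 200, and 103 pairs had the very same base. The systemically activated summit was to the left of the intact one in 6599 pairs and to the right in 6456, with a median signed shift of -1 base. It lay inside the intact interval in 90.9% of pairs, and the intact summit lay inside the systemically activated interval in 83.2%.

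The distance depended on the strength and the width of the peaks. From the lowest to the highest quartile of the systemically activated −log10 q, its median was 109 bases (103 to 115), 92 bases (87 to 97), 76 bases (72 to 80) and 53 bases (50 to 56). Stronger peaks thus had summits closer to those of intact limb, although they were broader. From the narrowest to the broadest quartile of pairs it was 64 bases (60 to 68), 77 bases (73 to 81), 86 bases (82 to 91) and 100 bases (94 to 107), as the cumulative plot of summit distance shows. Relative to the mean width of the pair the medians were 23.6%, 19.8%, 17.5% and 14.5%. At the 13019 pairs whose peaks both overlapped the same blastema peak, the median distance was 80 bases (78 to 82) between systemically activated and intact summits, 76 bases (74 to 79) between systemically activated and blastema summits, and 72 bases (70 to 75) between intact and blastema summits. The distance between the limb lists was therefore within 8 bases of that from either limb list to blastema. Median widths at these pairs were 377 bases in systemically activated limb, 501 bases in intact limb and 967 bases in blastema. As distance depended on width, the distances are not like for like.

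**Figure D3:**
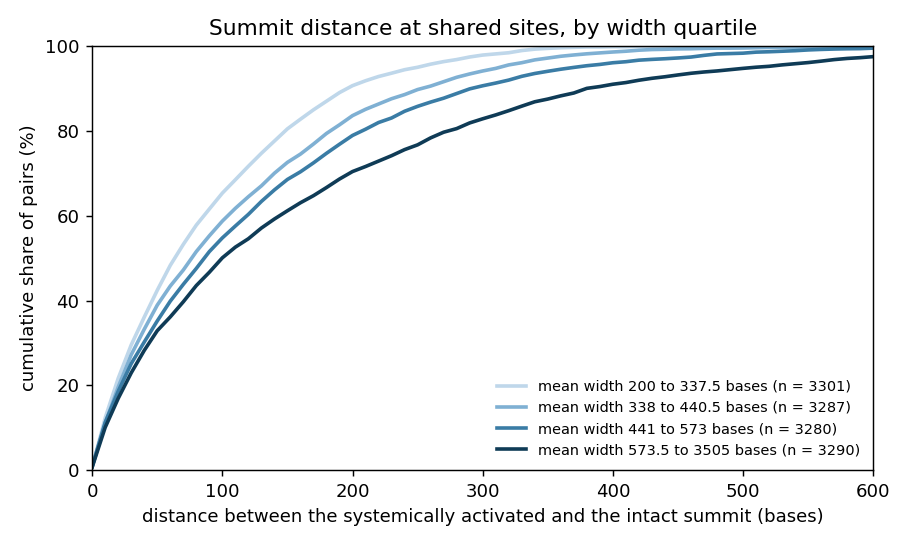
Cumulative share of pairs (y axis, percent) by the distance between the systemically activated and the intact summit (x axis, bases), 1 line for each quartile of the mean width of the pair. The narrowest pairs have the shortest distances, with a median of 64 bases, and the broadest the longest, with a median of 100 bases.

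The largest summit distances lay in broad intact peaks. Only 247 pairs (1.88%) had summits over 500 bases apart. The largest distance, 4077 bases, was on 5q segment 0, in the widest intact peak of all with 4533 bases (57768758 to 57773290). Systemically activated limb had 2 peaks there, one of 2477 bases (57768768 to 57771244) with a pileup of 112 at its summit, and one of 1611 bases (57771668 to 57773278) with a pileup of 115. The summit of the second was 118 bases from the intact summit, which had a pileup of 156. On 6q segment 0, an intact peak of 1608 bases (179024359 to 179025966) also held 2 systemically activated peaks, whose summits were 7 and 1200 bases from its own. On 3p segment 1, by contrast, single peaks of nearly equal extent, 2455 bases (259877564 to 259880018) in systemically activated and 2480 bases (259877557 to 259880036) in intact limb, had summits 1446 bases apart.

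The 5 broadest systemically activated peaks at shared sites differed in how far they matched their intact partners. Next in width after the first are the peaks on 5q segment 0 and 3p segment 1 given above, which have the largest summit distances of all pairs on named arms, and on 5q the width difference was -2056 bases. The widest of all covered 3232 bases on 12q segment 0 from 210820612 to 210823843, inside an intact peak of 3262 bases (210820593 to 210823854), with summits 94 bases apart. The fourth, also on 12q segment 0, had 2058 bases (212181784 to 212183841) against 1990 bases (212181835 to 212183824), with summits 35 bases apart. The fifth, on 1q segment 0, had 1895 bases (273839423 to 273841317) against 1887 bases (273839400 to 273841286), with summits 18 bases apart. Across all pairs, widths in the 2 lists had a rank correlation of 0.454 and −log10 q values one of 0.527 (Spearman, over 13158 pairs, which share libraries and neighbouring positions).

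Peaks without a counterpart fell into 2 ranges of distance to the other list, one close to and one far from its peaks. The histogram of distances shows both, with few peaks between 1 and 10 kb. Of 4102 systemically activated peaks with no intact overlap but with an intact peak on the same sequence, 557 (13.6%) lay within 1 kb of it, 194 (4.73%) between 1 and 10 kb and 60.3% beyond 100 kb. Of 12625 intact peaks, 1010 (8%) lay within 1 kb of a systemically activated peak, 452 (3.58%) between 1 and 10 kb and 70.2% beyond 100 kb. The median gap was 168 kb (156 to 183) for systemically activated and 281 kb (271 to 293) for intact peaks. Another 66 systemically activated and 253 intact peaks stood on sequences with no peak of the other list. The list to which the distance is measured is the longer one in the first case and the shorter one in the second, so the medians cannot be compared as such. For background, 9.98% of all systemically activated and 10.8% of all intact peaks lay within 1 kb of another peak of their own list. The median gaps within the lists were 268 and 175 kb. A near range is thus not particular to peaks without a counterpart.

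**Figure D4:**
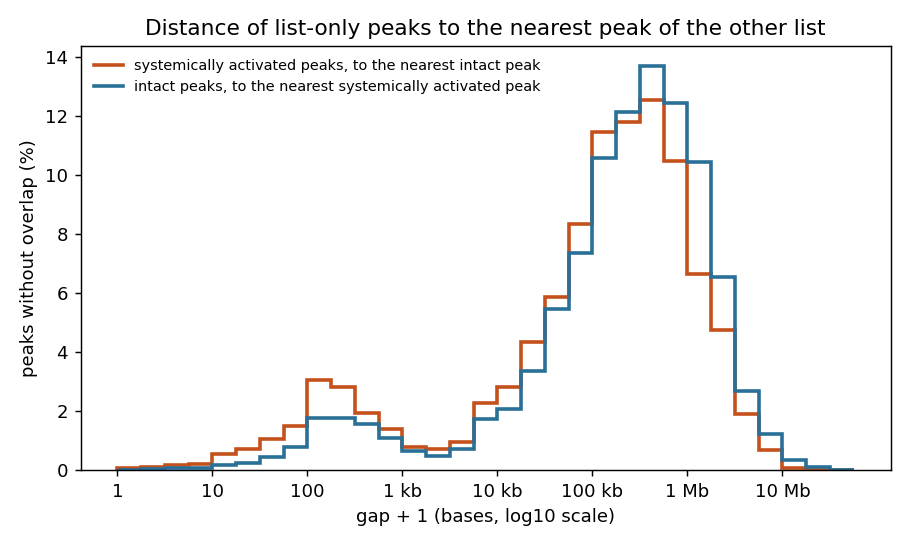
Share of peaks without an overlap (y axis, percent per bin) by the gap to the nearest peak of the other list (x axis, bases plus 1, log10 scale), for 4102 systemically activated and 12625 intact peaks. Both lines have a low hump under 1 kb and a high one between 10 kb and several Mb, with 4.73% and 3.58% of peaks between 1 and 10 kb.

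Most peaks of the near range shared an interval of the all-sample list with a peak of the other limb list. Of the 557 systemically activated peaks within 1 kb of an intact peak, 494 (88.7%) shared an all-sample interval with an intact peak. The labels give the all-sample list for all 7 samples. Of the 1010 intact peaks, 881 (87.2%) shared one with a systemically activated peak. A single blastema interval joined 424 (76.1%) and 772 (76.4%) of them to the other list. Under 200 bases the shares joined by an all-sample interval were 98.8% and 99.0%, and between 1 and 10 kb they were 3.61% and 3.98%. At any distance, 501 of 4168 systemically activated peaks (12.0%) and 899 of 12878 intact peaks (6.98%) that were unshared at the 1-base rule stood in an all-sample interval that the other list also touched.

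Farther peaks were less often overlapped by a blastema peak and had lower pileups. From under 200 bases to over 1 Mb from the nearest intact peak, the share of unshared systemically activated peaks with a blastema overlap ran from 94.6% (91.6 to 96.8) over 83.1% (80.5 to 85.5) at 10 to 100 kb to 57.7% (53.6 to 61.8). The same shares of unshared intact peaks were 95.3% (93.1 to 96.9), 85.7% (84.2 to 87.1) and 67.2% (65.4 to 68.9). The median pileup also went down over these 3 classes, from 13 over 11 to 9 fragments in systemically activated and from 16 over 12 to 11 in intact limb. The all-sample list held 89.3% of the systemically activated and 92.2% of the intact peaks beyond 1 Mb. It held all the peaks that had a counterpart in the other limb list. By the labels, the all-sample list is also that of the samples of both groups. Overlap with blastema, pileup and distance thus moved together. The blastema list is much longer than the limb lists, so its high shares are no measure of likeness to blastema.

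The most isolated peaks were small. Distances were measured within a segment only, so peaks beyond a cut in an arm were not counted. Some of these distances may therefore be too long. The systemically activated peak farthest from an intact one was 200 bases long with a pileup of 6, on 7q segment 0 from 244808973 to 244809172, 17.8 Mb away. The other 4 of the 5 farthest lay on 10q, 7q, 9q and 12q, from 8.83 to 12.3 Mb away and 200 to 223 bases long. The intact peak farthest from a systemically activated one lay on 9q segment 1 from 329097217 to 329097416, 43.9 Mb away, with a pileup of 5, and the next 2 lay on the same segment. The last 2 were on 5p segment 0, 28.6 and 26.6 Mb away. Of these 5 peaks in each direction, the all-sample list held 2 and the blastema list 1. Among all peaks beyond 1 Mb, the all-sample list held 89.3% of systemically activated and 92.2% of intact peaks. Blastema peaks overlapped 57.7% and 67.2% of them.

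The 28 arms lay within 9.30 percentage points of each other for systemically activated peaks and within 10.7 for intact peaks. By arm, intact peaks overlapped from 71.8% (65.9 to 77.1) of systemically activated peaks on 13p to 81.1% (74.7 to 86.4) on 14p. After 13p the lowest were 7q (72.3%) and 8q (72.4%), and after 14p the highest were 7p (79.6%) and 4p (79.3%). Seen from the intact list the shares ranged from 46.0% (40.9 to 51.2) on 10q to 56.8% (50.6 to 62.8) on 14p, with 8q (46.2%) and 2p (47.5%) next to the lowest, and 14q (55.7%) and 11p (54.1%) next to the highest. The interval of an arm held the genome-wide share on 26 of 28 arms for systemically activated peaks, with 2p and 2q outside it. It did so on 25 of 28 arms for intact peaks, with 8q, 14p and 14q outside it. The median intact width was 318 bases on 8q, the lowest of all arms, and 406 bases on 14p, the highest. It was 381 bases on 14q and 350 bases in the whole list. On 10q, which had the lowest share, it was 346.5 bases. The shares by arm were not adjusted for peak width. Intervals were not adjusted for the number of arms. Arm 14p had the highest share in both directions, but these count largely the same shared sites and are not separate observations. Its interval for systemically activated peaks held the genome-wide share. On unplaced sequences the shares were 74.8% and 48.2%.

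**Figure D5:**
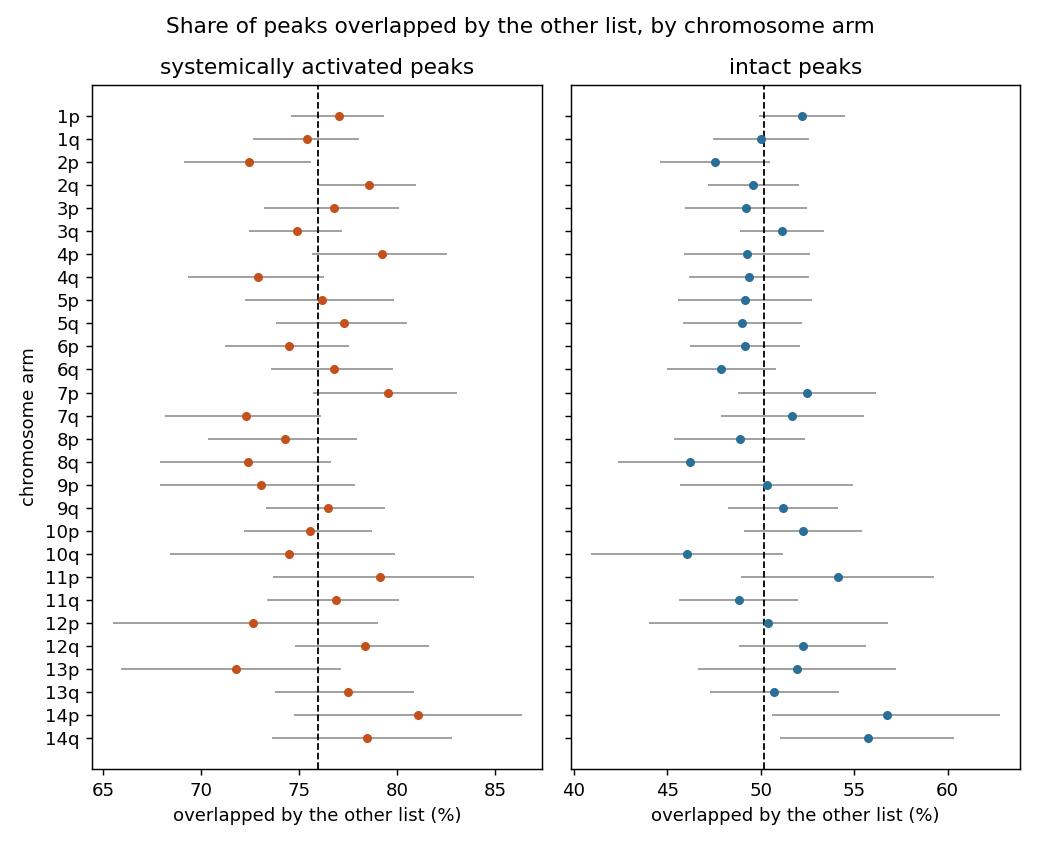
Share of peaks overlapped by the other list (x axis, percent) on each of 28 chromosome arms (y axis), with exact binomial 95% intervals, for systemically activated peaks on the left and intact peaks on the right. The dashed line is the genome-wide share of the list. Most intervals hold it, and 14p lies highest in both panels, at 81.1% and 56.8%. The panels count largely the same shared sites.

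Sharing was somewhat more frequent where open sites were dense. In windows of 20 Mb, counted within each segment of an arm, the quartile of windows with the fewest sites (1 to 11 each) had 36.2% (34.2 to 38.3) of its sites in both lists, and the quartile with the most (28 to 163 each) had 45.4% (44.6 to 46.2). Sites only in the systemically activated list made up 17.9% (16.3 to 19.5) and 12.5% (12.0 to 13.1) of them, and sites only in the intact list 45.9% (43.8 to 48.0) and 42.1% (41.3 to 42.9). The densest window, on 1q segment 2 from 420 to 440 Mb, held 163 sites, of which 18 were only in the systemically activated list, 68 only in the intact list and 77 in both. Windows with 128 sites on 9q segment 2 (300 to 320 Mb) and with 112 sites on 12q segment 0 (200 to 220 Mb) followed. Both lists held 52.3% and 53.6% of these sites. Over all windows that share was 42.8%, and over the windows with at least 50 sites it was 47.6%.

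Among the 70 windows with at least 50 sites, the share only in the systemically activated list was highest on 13q from 220 to 240 Mb, with 14 of 52 sites (26.9%, 15.6 to 41.0). Windows on 1p segment 0 from 80 to 100 Mb (12 of 54) and on 13p from 200 to 220 Mb (19 of 90) followed. It was lowest in the first 20 Mb of 11p and in the last window of 1q segment 2, from 480 Mb on, with 1 of 50 sites each (2.00%, 0.0506 to 10.6). Next came 6q segment 3 from 360 to 380 Mb with 2 of 88 sites (2.27%, 0.276 to 7.97), where 35 sites were only in the intact list. Over the 70 windows together, 10.9% of sites were only in the systemically activated list and 41.5% only in the intact list. Over all windows the systemically activated share was 14.0%. As these windows were picked for their extremes among 70, their shares are a description.

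The longest run of sites called only in the systemically activated list lay in that window of 13q. It held 6 consecutive peaks over 0.376 Mb, from 238862388 to 239238636, with widths of 230 to 397 bases and pileups of 8 to 24. The all-sample list held all 6 and the blastema list 4, and the nearest intact peak was 165 kb from the first of them. The next run held 5 peaks over 0.189 Mb on 12p, from 4999847 to 5189117, with pileups of 10 to 18, and blastema peaks overlapped all 5. The third, again on 13q, held 4 peaks from 301826675 to 302341961, of which blastema peaks overlapped 3. In each of these 3 runs, 2 neighbouring peaks lay within 500 bases of each other and were counted apart. The background for these counts is the 77.4% of all systemically activated peaks without a counterpart that blastema peaks overlapped, and the 96.4% that the all-sample list held. Of the 3480 runs of this class, 86.3% were a single site. The class held 14.0% of all sites, and a class of low share forms mostly single-site runs even in a random order. Over the whole of 13q, intact peaks overlapped 77.5% (73.8 to 80.9) of systemically activated peaks, against 75.9% genome-wide.

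The longest runs of sites called only in the intact list held more sites, and this class was also the more frequent one. They reached 16 peaks over 4.22 Mb on 4q segment 2 (385263982 to 389482301), with widths of 200 to 497 bases and pileups of 7 to 22. The last 2 of these peaks also lay within 500 bases of each other. The next held 13 peaks over 8.10 Mb on 4p segment 0 (50896305 to 58996004) and 11 peaks over 12.1 Mb on 2q segment 1 (66790119 to 78863834). Blastema peaks overlapped 15, 9 and 8 of the peaks in these 3 runs, and the all-sample list held all of them, against 80.7% and 96.7% of all intact peaks without a counterpart. Of the 7125 runs of this class, 57.5% were a single site. Sites only in the intact list were 43.2% of all sites and those only in the systemically activated list 14.0%. A class with a larger share of sites has longer runs even in a random order. Whether the runs were longer than these shares give was not tested.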

How the data were processed

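Per the submitters' processing notes, Bowtie2 2.3.2 and MACS2 were used. Not given in the sources used here are the MACS2 version, the genome build, any control, any Tn5 shift and how duplicates were handled. The authors deposited 1 peak list per group and 1 for all samples, per the labels, and how samples were combined is not stated. The values that the authors deposited per peak are a start, an end, a summit offset, a score (10 times the −log10 q, not used further), the fold over background, and the −log10 p and −log10 q at the summit. They describe peaks within a list only. Positions are printed 1-based on the authors' sequences, which are chromosome arms, some cut into numbered segments with positions counted within each.

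Overlaps, gaps, pairs and medians were computed with pandas 2.3.3, numpy 2.4.6 and scipy 1.17.1, after the code was tested on simulated lists. Pileup and background were solved from fold and −log10 p by the MACS2 formulas (99.8% of systemically activated and 99.9% of intact peaks had a single solution). Named peaks and regions follow a rule by width, distance, run length and share, in each direction, and several are given only as ranges. The comparison and the rule were chosen with earlier results of these data known. Alternatives in the overlap rule, threshold, list length, merging, sequences and pairing were tried.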

Additional observations from a re-analysis of the deposited data

How the results depend on the processing

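No paired analysis was possible because each group has 1 list, and for the same reason no sample could be left out. Leaving out unplaced sequences moved no value beyond its interval. Intact peaks overlapped 75.9% of systemically activated peaks, and 54.4% where at least 50% of both intervals had to overlap, 69.2% with the summit inside the other interval, 73.1% at an overlap of at least 100 bases, 78.5% at −log10 q values from 5 up and 66.4% with the intact list at the length of the systemically activated one. The share of intact peaks (50.2%) was 36.5%, 42.7%, 48.1%, 53.3% and 64.7% in the same settings, and 51.0% with peaks within 500 bases merged. Nearly all shared sites are 1 peak of each list, so lists of equal length must have nearly equal shares. Without peaks of exactly 200 bases, an alternative added after the data were seen, the shares were 79.6% and 52.3%. The summit distance (80 bases) was 65 bases under the 50% rule, 69 with the summit inside, 76 at 100 bases of overlap, 67 at −log10 q values from 5 up and 76 over pairs of 1 peak each. The width difference (-94 bases) was -62, -103, -99 (−log10 q), -105 (equal length) and -84 bases (pairs of 1 peak each), and stayed negative throughout. Under each stricter overlap rule, peaks that overlap but fail the rule count with a gap of 0, which lowers the median gaps. The median gap of systemically activated peaks (168 kb) was 0.102 kb under the 50% rule, 79.2 kb with the summit inside and 123 kb at 100 bases. It was 348 kb at a −log10 q of at least 5, 297 kb at equal length and 187 kb with merging. The median gap of intact peaks (281 kb) was 141, 197, 257, 563, 256 and 311 kb in these settings, and 299.9 kb without 200-base peaks. The range over arms (9.30 and 10.7 percentage points) ran from 7.13 to 15.9 and from 7.44 to 15.1 points. The lowest pileup called was 5 fragments in both lists, which bounds what either could hold.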
